A study of Mus musculus with 12 samples.

Results

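Fos, Fosb, Fosl2, Jun, Junb, Jund, Egr1, Nr4a1, Klf4 and Myc are immediate early genes that encode transcription factors. They were taken here by name, with earlier results of these data known, as 10 of the 17097 genes with a probe set of their own on the array. Their signals were followed in cells labelled as fibroblasts and sorted from mouse lung into a bright and a dim gate. The direction of each comparison between the gates rests on the labels. Klf4 and Myc were several-fold higher in bright than in dim cells in every condition, and Fosl2 was about 2-fold higher. Fosb, Egr1 and Nr4a1 were also higher in bright cells as the mean over the conditions. Their lowest or near-lowest signals lay on the dim arrays of sham-operated mice. The difference passed for none of them in either resection condition alone, nor as the mean without both of those dim arrays. No member changed past the threshold between sham operation, lung resection and lung resection with FGF receptor inhibition. The largest such difference, a 4.51-fold higher Nr4a1 signal in dim cells after resection, did not pass the test over all genes.

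The mice carried a PDGFRa-GFP reporter, and the green fluorescence of the reporter set the gates. SHAM mice had an operation without resection, PNX mice lost part of the lung and regrow septa, and PNX-dnFGFR mice had the resection while expressing a dominant negative FGFR2, which blocks that regrowth by the submitters' account. All lungs were taken on day 5, made into single cells with dispase and sorted, and RNA of 2000 cells per sample was amplified over 25 cycles before hybridisation. Bright and dim cells of each condition gave 6 groups with 2 arrays each, labelled biological replicates. Whether a replicate was 1 animal or a pool, whether bright and dim cells came from the same animals, and which promoter drove the dominant negative receptor were not given. The p-values therefore measure the spread between these arrays, whose number limits the precision.

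Values are log2 signals from the submitters' RMA processing, so a difference of 1 is a 2-fold change. Array medians lay between 5.06 and 5.13, and the 11073 genes above log2 5.101, the overall median, on 2 or more arrays were tested. All 10 members were among them, read from 14 probe sets, of which the one with the highest mean stood for the gene. The residual spread over all genes had a median of 0.199 log2. The labelled cell type was checked first. Of 6 fibroblast genes, all of which passed between the gates, Col1a1 and Col3a1 were between 11.82 and 12.57 on all 12 arrays, with bright cells higher by 0.41 and 0.22. Dcn, a matrix proteoglycan, was at 11.97 to 12.21 on bright and 5.72 to 8.48 on dim arrays (difference 5.05), and Col1a2 at 6.87 to 7.80 and 5.74 to 6.85 (1.05). Tcf21, a transcription factor of lung fibroblasts, went the other way, at 6.99 to 8.69 on bright and 10.22 to 10.80 on dim arrays (-2.71). Pdgfra itself was lower on the arrays labelled bright, at 4.84 to 5.54, than on the dim ones, at 6.66 to 7.13, from its only named probe set (difference -1.75, adjusted p = 9.9e-07). The direction of every bright and dim comparison therefore rests on the labels.

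Immediate early genes are transcribed within minutes of a stimulus from factors already present in the cell, with no need for new protein. Growth factor receptors, stress kinases and calcium or cAMP signals reach them through the serum response factor and CREB. Fos and Jun family proteins pair to form the dimeric factor AP-1, and the other members bind their own DNA motifs. Cutting, warming and enzyme digestion of a tissue are known to induce many of these genes in the cells that are released. All 6 groups were digested, and no undigested lung was analysed here, so a level present in the lung and a level reached during digestion cannot be told apart.

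Promoter sequence from RefSeq (GRCm38.p6) was searched for 8 of the 10 members, all but Egr1 and Myc. Windows on the chromosome that carries Egr1 were left out of the search of the members. The members' motif counts therefore say nothing about Egr1 or Myc. TGACG, the core of the cAMP response element to which CREB binds, was found on either strand in the 250 bases before the start of 5 of these 8 genes, Fos, Fosb, Junb, Nr4a1 and Klf4. It was found in 17.8% of the 32851 promoter windows of the same length. The Egr motif GCGNGGGCG was found in 4 of the 8, Fosb, Fosl2, Nr4a1 and Klf4, against 4.7% of all windows. TATAAA was found only in Fos, against 12.4%. The full element TGACGTCA, which contains TGACG, the AP-1 motif TGANTCA and the CArG box of the serum response factor had no match in these 8 windows, against 1.55%, 6.75% and 1.47% of all windows. The 150 bases before the start of 4 members follow, shown because each holds TGACG this close to the start. Capitals mark TGACG and GCGNGGGCG, also where they lie on the opposite strand.
Fos (chr12:85473740-85473889, plus strand): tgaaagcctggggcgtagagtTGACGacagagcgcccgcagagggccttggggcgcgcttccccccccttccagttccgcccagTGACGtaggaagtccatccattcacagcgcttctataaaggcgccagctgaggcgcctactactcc
Fosb (chr7:19310046-19310195, minus strand): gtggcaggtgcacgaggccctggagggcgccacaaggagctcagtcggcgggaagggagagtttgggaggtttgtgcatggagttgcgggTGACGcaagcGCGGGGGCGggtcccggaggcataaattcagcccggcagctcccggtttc
Junb (chr8:84978749-84978898, minus strand): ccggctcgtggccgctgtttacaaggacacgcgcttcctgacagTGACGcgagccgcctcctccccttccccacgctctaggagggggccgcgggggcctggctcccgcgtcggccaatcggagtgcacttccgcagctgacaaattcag
Nr4a1 (chr15:101266696-101266845, plus strand): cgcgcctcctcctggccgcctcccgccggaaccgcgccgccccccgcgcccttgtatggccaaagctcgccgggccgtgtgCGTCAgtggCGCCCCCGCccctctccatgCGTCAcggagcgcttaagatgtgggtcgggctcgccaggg
In Fos the matches to TGACG end 125 and 62 bases before the start, the nearer one upstream of the TATAAA that ends 28 bases before it. In Nr4a1 an Egr motif lies between the matches that end 65 and 36 bases before the start. In Fosb an Egr motif that ends 42 bases before the start follows the TGACG. A match to letters is a description of the sequence, not a measured binding site. Variants of these motifs, such as tgacatca in the Jun window, and bases farther upstream were not searched. The lack of a match here therefore does not mean that a gene lacks the element.

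The first comparison asked which members differed between the gates, as the mean over the 3 conditions. By limma, 6 of the 10 were higher in bright cells, which were Fosb, Fosl2, Egr1, Nr4a1, Klf4 and Myc, and 0 were lower. Of all genes tested, 28.5% were higher and 19.3% lower in the same fit. The members had a median difference of 0.85, against 0.05 over all genes. At an unadjusted p below 0.05, which 54.8% of all genes reached, the count was 9, with positive differences of Fos and Junb and a negative one of Jund beside the 6. In sorted bulk samples, fewer cells that carry a transcript and less of it per cell cannot be told apart.

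**Figure D1:**
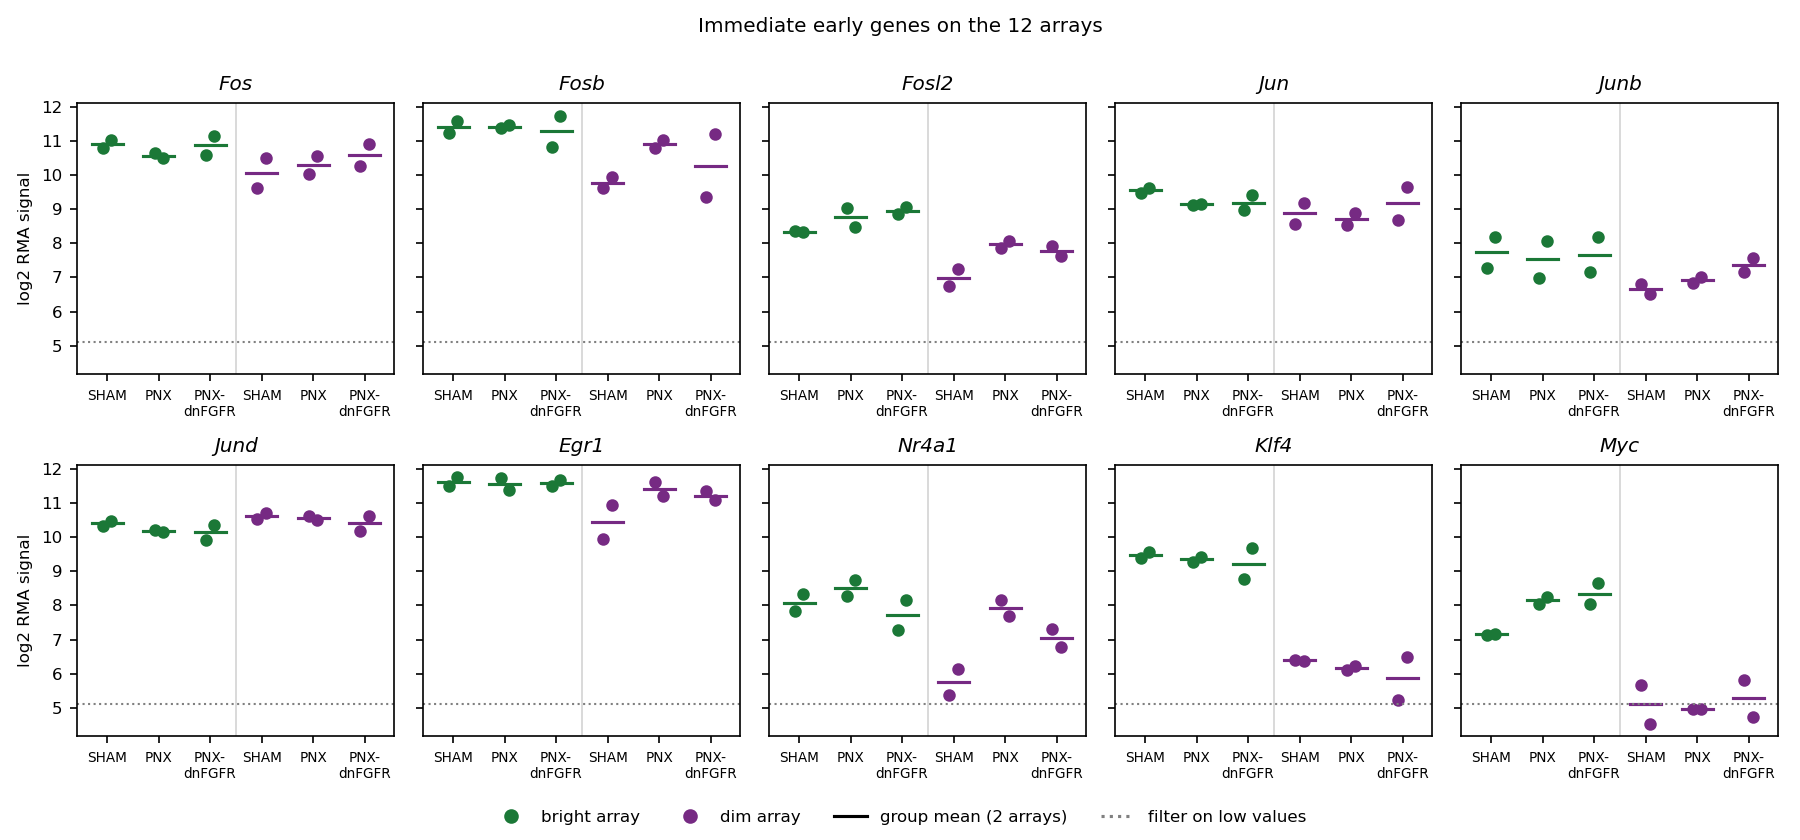
Log2 RMA signal of each of the 10 genes on the 12 arrays (green points bright, purple points dim, bars group means of 2 arrays, dotted line the filter at log2 5.101), by condition. Klf4, Myc and Fosl2 have every bright array above every dim array, and Nr4a1 is lowest on the dim SHAM arrays, at 5.38 and 6.13.

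Among the Fos family, Fosl2, which encodes the Fos-related protein Fra-2, separated the gates. Its signal on bright arrays was 8.35 and 8.33 for SHAM, 9.04 and 8.49 for PNX, 8.86 and 9.05 for PNX-dnFGFR. On dim arrays it was 6.74 and 7.24 for SHAM, 7.86 and 8.08 for PNX and 7.93 and 7.64 for PNX-dnFGFR. The lowest bright array lay 0.25 above the highest dim array, so the gates did not overlap. By a looser rule, with bright above dim arrays inside each condition, 20% of all genes did not overlap. The mean difference was 1.11 ± 0.13 (SE, n = 6 arrays per gate, adjusted p = 1.2e-04), a 2.16-fold higher signal. The second probe set of Fosl2 gave 1.05 ± 0.11, again with every bright array above every dim one.

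Fosb, an AP-1 subunit close in sequence to Fos, was at 11.22 and 11.57, 11.36 and 11.47, and 10.82 and 11.73 on the bright SHAM, PNX and PNX-dnFGFR arrays. The dim arrays gave 9.62 and 9.93 for SHAM, 10.78 and 11.02 for PNX and 9.34 and 11.21 for PNX-dnFGFR. Bright arrays were high in all conditions, while dim arrays spread over 1.87 log2 and the highest of them overlapped the bright range. Bright cells exceeded dim cells in Fosb by 1.04 ± 0.29 (adjusted p = 0.016). Without both dim SHAM arrays, an alternative chosen after the data were seen, the difference was 0.76 with an adjusted p of 0.14.

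Fos, the founding member of the family, had signals of 10.50 to 11.15 with a median of 10.71 on bright arrays and 9.63 to 10.90 with a median of 10.38 on dim ones. The ranges overlapped widely, and 2 of 6 bright arrays exceeded the highest dim array. Its difference of 0.47 ± 0.19 did not pass (adjusted p = 0.068). It did pass without dim PNX-dnFGFR replicate 2 (0.57, adjusted p = 0.043) or dim SHAM replicate 2 (0.61, adjusted p = 0.021), and over all 23 alternatives the adjusted p of Fos ranged from 0.017 to 0.28.

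In the Jun family no member passed. Jun, the main partner of Fos in AP-1, was at 8.96 to 9.62 on bright and 8.54 to 9.65 on dim arrays, and its highest signal was on dim PNX-dnFGFR replicate 2. Its difference was 0.37 ± 0.19 (adjusted p = 0.13), and without that array it was 0.53 with an adjusted p of 0.023. The second probe set of Jun gave 0.59 ± 0.24.

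Junb, an AP-1 subunit that can dampen Jun activity, was at 7.29 and 8.18, 6.99 and 8.07, and 7.15 and 8.17 on the bright SHAM, PNX and PNX-dnFGFR arrays. On dim arrays it was at 6.81 and 6.51, 6.84 and 7.0, and 7.15 and 7.58. Replicate 2 was the higher bright array in all 3 conditions, by 0.89, 1.08 and 1.01, gaps larger than those of 96.5%, 96.7% and 98.3% of all genes in these groups. Its difference between gates was 0.66 ± 0.25 (adjusted p = 0.055). Leaving out any 1 of 3 arrays moved Junb past the threshold. Without bright replicate 1 of SHAM, PNX or PNX-dnFGFR, its difference was 0.81, 0.84 and 0.83. In all, Junb passed in 6 of 23 alternatives.

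Jund, a Jun protein that is abundant in resting cells, was the only member with a higher mean on dim arrays. It was at 9.92 to 10.48 on bright and 10.19 to 10.70 on dim arrays, and the ranges overlapped. The difference of -0.29 ± 0.11 had an adjusted p of 0.059. Without bright PNX-dnFGFR replicate 2 or dim PNX-dnFGFR replicate 1, Jund passed at -0.36 (adjusted p = 0.031 and 0.026). Its second probe set gave -0.15 ± 0.08, with signals near the filter. In all, Jund passed in 7 of 23 alternatives.

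Egr1, a zinc finger factor induced by the MAP kinase cascade, was uniformly high on bright arrays, from 11.38 to 11.75. On dim arrays it was at 9.94 and 10.93 for SHAM, 11.61 and 11.19 for PNX and 11.34 and 11.08 for PNX-dnFGFR. The dim SHAM arrays were the lowest of all 12 and did not overlap the dim PNX-dnFGFR arrays next in order. Bright cells exceeded dim cells in Egr1 by 0.58 ± 0.17 (adjusted p = 0.021). This call was lost without any 1 of 5 arrays: bright PNX replicate 1 (0.52, adjusted p = 0.055), dim PNX replicate 2 (0.51, 0.059), bright SHAM replicate 2 (0.54, 0.053), or replicate 2 of bright (0.54, 0.055) or dim PNX-dnFGFR (0.53, 0.055). Without both dim SHAM arrays the Egr1 difference was 0.27 (adjusted p = 0.17).

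Nr4a1, an orphan nuclear receptor also called Nur77, was at 7.83 and 8.32, 8.27 and 8.75, and 7.28 and 8.16 on the bright SHAM, PNX and PNX-dnFGFR arrays. On dim arrays it was at 5.38 and 6.13 for SHAM, 8.16 and 7.69 for PNX and 7.32 and 6.78 for PNX-dnFGFR. The dim PNX arrays lay within the bright range, and the dim SHAM arrays stood alone at the bottom. As a mean, the Nr4a1 signal of bright cells was higher by 1.19 ± 0.21 (adjusted p = 0.0015), a 2.28-fold difference that passed with any single array left out. Without both dim SHAM arrays it was 0.63, with an adjusted p of 0.072.

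Klf4, a zinc finger factor that can restrain proliferation and contributes to reprogramming to pluripotency, showed the widest gap. On bright arrays it was at 9.40 and 9.56 for SHAM, 9.27 and 9.42 for PNX and 8.76 and 9.68 for PNX-dnFGFR. On dim arrays it was at 6.40 and 6.38, 6.11 and 6.22, and 5.24 and 6.5. The lowest bright array lay 2.27 above the highest dim array. The mean difference was 3.21 ± 0.22 (adjusted p = 3.9e-06), a 9.24-fold higher signal in bright cells. The second probe set of Klf4 gave 3.76 ± 0.20, and over all 23 alternatives the difference stayed between 3.0 and 3.76.

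Myc, the growth-promoting factor that pairs with Max, was at 7.14 and 7.16 for SHAM, 8.05 and 8.26 for PNX and 8.04 and 8.65 for PNX-dnFGFR on bright arrays. On dim arrays it was at 5.67 and 4.53, 4.98 and 4.98, and 5.82 and 4.74, above the filter on only 2 of 6. The gates did not overlap, with the lowest bright array 1.32 above the highest dim one. The Myc signal of bright cells was higher by 2.76 ± 0.24 (adjusted p = 1.5e-05). With sub-filter values raised to the filter, the Myc difference was 2.57, since dim signals this low were not shown to lie above background.

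**Figure D2:**
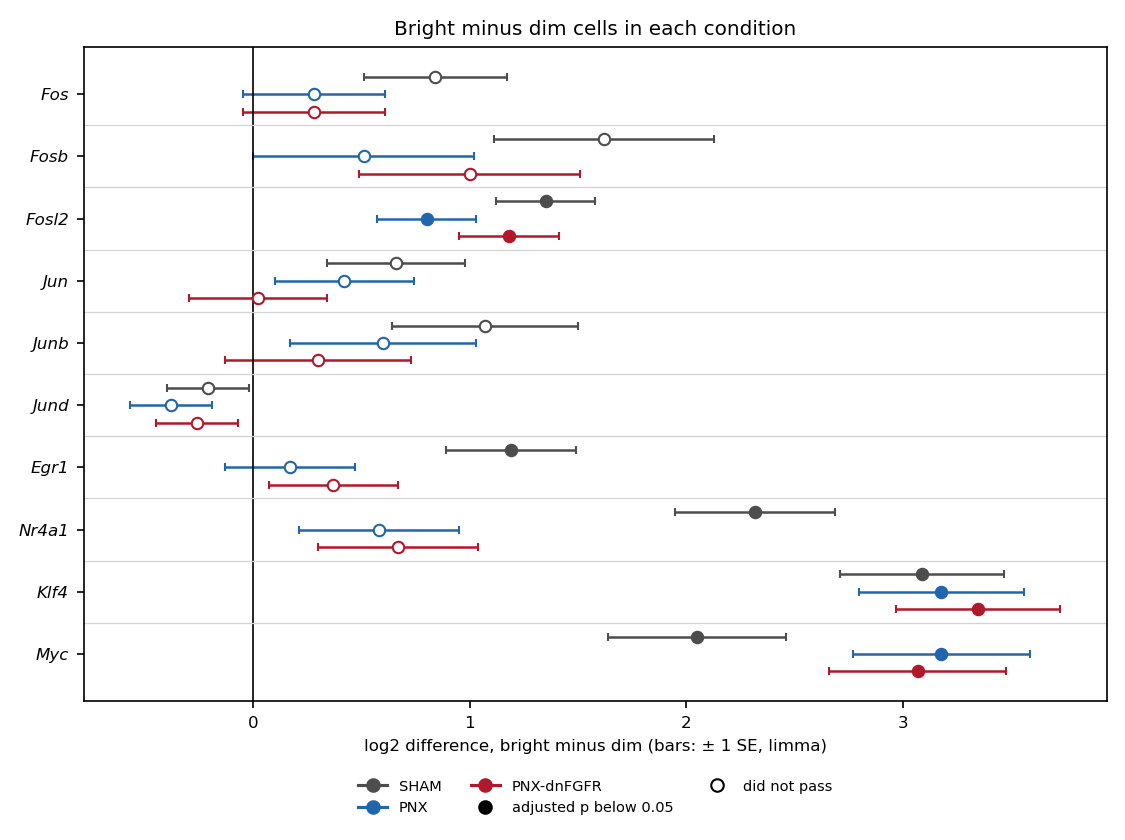
Log2 difference between bright and dim cells for each member in SHAM (grey), PNX (blue) and PNX-dnFGFR (red), as points with bars of ± 1 SE from limma, filled where the adjusted p was below 0.05. Fosl2, Klf4 and Myc are filled in all 3 conditions, Egr1 and Nr4a1 only in SHAM, and Jund alone lies to the left of 0.

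Within single conditions, with 2 arrays against 2, the members called were fewer and the same 3 recurred. In SHAM, 5 members were higher in bright cells, Fosl2, Egr1, Nr4a1, Klf4 and Myc, where 11.5% of all genes were higher. In PNX, 3 members were higher, Fosl2, Klf4 and Myc, against 11.4% of all genes. In PNX-dnFGFR the same 3 were higher, against 21% of all genes. No member was lower by limma in any of them, where 7.53%, 7.07% and 13.5% of all genes were. An unadjusted p below 0.05 was reached by 8 members in SHAM (32% of all genes), 3 in PNX (31.6%) and 3 in PNX-dnFGFR (44.8%).

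The size of these differences can be followed gene by gene. Klf4 was higher in bright cells by 3.09 ± 0.38 for SHAM, 3.18 ± 0.38 for PNX and 3.35 ± 0.38 for PNX-dnFGFR, so that its 3 values lay within 1 SE of each other. Myc was higher by 2.05 ± 0.41, 3.18 ± 0.41 and 3.07 ± 0.41, and its value in SHAM was not called without dim SHAM replicate 2 (1.48, adjusted p = 0.053). Fosl2 was higher by 1.35, 0.80 and 1.18, each ± 0.23. In PNX the Fosl2 call (adjusted p = 0.038) was lost without either replicate of dim PNX (0.68 and 0.91, adjusted p = 0.18 and 0.09), of bright PNX-dnFGFR (0.80, 0.055) or of bright SHAM (0.80, 0.056), and without bright PNX replicate 1 (0.52, 0.22). The Fosl2 call in PNX was also lost in a fit of only the groups compared (0.80, adjusted p = 0.11).

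Nr4a1 differed between the gates by 2.32 ± 0.37 for SHAM (adjusted p = 0.0024), 0.58 ± 0.37 for PNX (0.32) and 0.67 ± 0.37 for PNX-dnFGFR (0.19). Egr1 differed by 1.19 ± 0.30 for SHAM (adjusted p = 0.022), 0.17 for PNX and 0.37 for PNX-dnFGFR, and its SHAM call was lost without bright SHAM replicate 1 (1.31, 0.062), bright SHAM replicate 2 (1.07, 0.12) or dim SHAM replicate 1 (0.70, 0.11). A fit of only the groups compared also lost the Egr1 call (adjusted p = 0.095). Fosb differed by 1.62 ± 0.51 in SHAM, which did not pass (adjusted p = 0.055) but did so at 0.0059 without either dim PNX-dnFGFR array, with the difference still at 1.62. It also passed with a stricter filter (0.041), a variance trend (0.036), a fit of only the groups compared (0.011) and the replicate number as a fixed block (0.021). Leaving out a SHAM array gave adjusted p-values of 0.12 to 0.21. In PNX-dnFGFR, Fosb differed by 1.0 (adjusted p = 0.16) and passed without dim PNX-dnFGFR replicate 2 (1.93, 0.0061). Whether the gap depended on the condition was tested as the difference between the gates of PNX minus SHAM. For Nr4a1 this was -1.74 ± 0.53 and for Egr1 -1.02 ± 0.42, with an adjusted p of 1 for both.

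Some markers of other cells differed between the gates, in both directions. The mean log2 signal of 5 pericyte and smooth muscle genes was 7.10 to 7.74 on bright and 5.99 to 6.51 on dim arrays, with Pdgfrb (3.23), Acta2 and Myh11 higher and Des lower in bright cells. Of 4 tested mesothelial genes Wt1 and Lrrn4 were higher, and the mean of all 5 was 4.35 to 7.13 on bright and 3.96 to 5.09 on dim arrays, with Msln below the filter on all 12. The mean of 4 lymphocyte genes was 4.58 to 5.21 on bright and 5.27 to 5.90 on dim arrays, with Cd3d and Cd79a lower in bright cells and Cd3e below the filter throughout. Epithelial genes were at 7.30 to 9.01 on bright and 7.86 to 9.18 on dim arrays, with Sftpc at 11.36 or more on every array and Cdh1 below the filter on all. Of 6 tested epithelial genes Hopx passed the threshold, lower in bright cells. Over 6 endothelial genes the mean was 5.23 to 6.12 on bright and 4.94 to 6.18 on dim arrays, with Tek higher and Cdh5 lower in bright cells. Over 8 macrophage and neutrophil genes it was 5.87 to 6.62 on bright and 5.66 to 7.30 on dim arrays, with Ptprc and Lyz2 lower in bright cells. The part of such cells in the members' differences was not tested.

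The second set of comparisons asked how the members responded to resection within each gate. By limma, 0 of 10 members passed for PNX minus SHAM in bright cells, where 0.00903% of all genes were called, and 0 of 10 in dim cells, where 0.0452% were called. The members' median difference was -0.10 in bright and 0.24 in dim cells, against 0.02 over all genes in both. An unadjusted p below 0.05 was reached by 1 member in bright cells, Myc, where 8.24% of all genes reached it. It was reached by 3 members in dim cells, Fosl2, Egr1 and Nr4a1, where 12.2% of all genes did.

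In dim cells Nr4a1 had the largest of these differences. Its PNX arrays, at 8.16 and 7.69, lay well above its SHAM arrays, at 5.38 and 6.13, a separation that 24.5% of all genes had in this direction. The difference was 2.17 ± 0.37 (unadjusted p = 2.2e-04, adjusted p = 0.11). It did not pass under any of 22 alternatives, where it ranged from 1.79 to 2.55 with an adjusted p of 0.068 to 0.28. In bright cells Nr4a1 differed by 0.44 ± 0.37, with overlapping arrays.

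The dim PNX arrays were also above the dim SHAM arrays for Fosl2 (0.98 ± 0.23, adjusted p = 0.15), Egr1 (0.96 ± 0.30, 0.26), Fosb (1.12 ± 0.51, 0.42) and Junb (0.26 ± 0.43, 0.85). Jun differed by -0.16, Jund by -0.05, Klf4 by -0.22, Fos by 0.23 and Myc by -0.12, each by less than its SE. In bright cells Myc had the largest difference, with PNX arrays at 8.05 and 8.26 and SHAM arrays at 7.14 and 7.16 (1.01 ± 0.41, adjusted p = 0.56). Fosl2 differed by 0.42, Fos by -0.34, Jun by -0.40 and Jund by -0.22, and Fosb, Egr1, Junb and Klf4 differed by less than their SE. As the mean over both gates Nr4a1 differed by 1.30 ± 0.26 (adjusted p = 0.09) and Fosl2 by 0.70 ± 0.16 (0.11), and 0 of 10 passed, where 0.144% of all genes were called. An unadjusted p below 0.05 was reached by 2 members and by 16.1% of all genes.

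**Figure D3:**
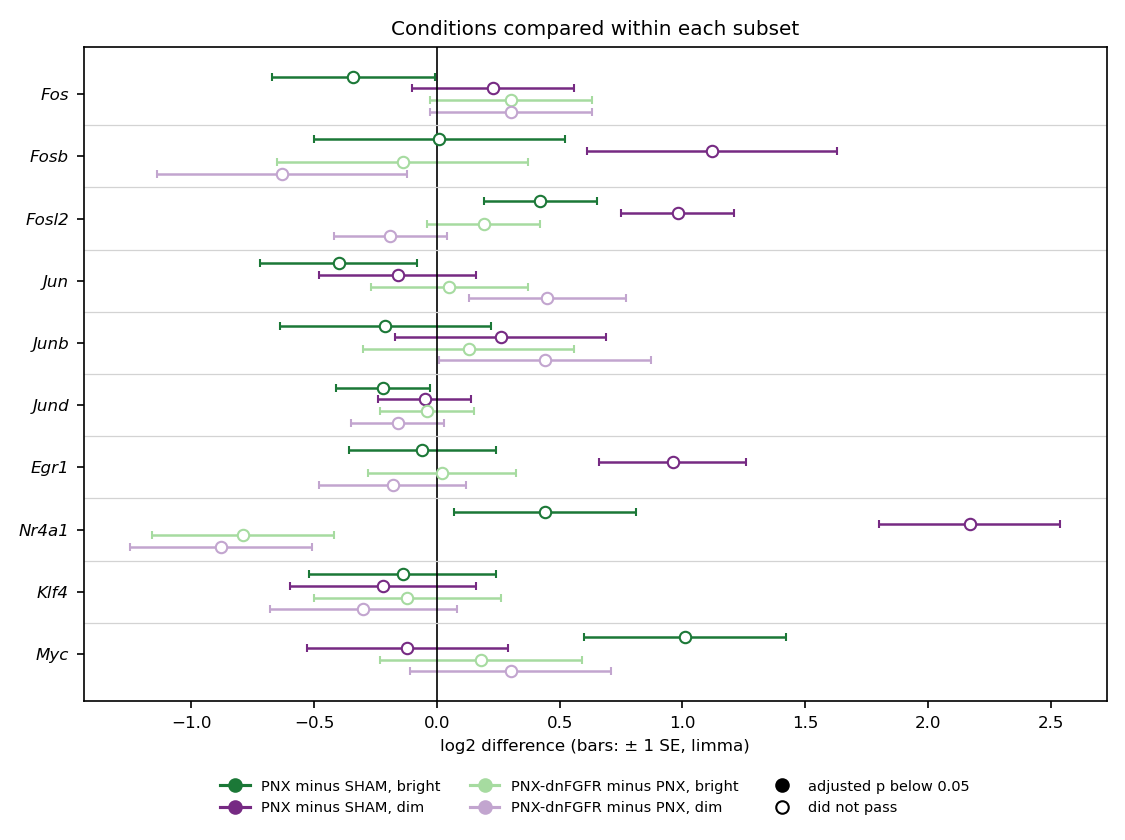
Log2 difference of each member between conditions within each gate (points, bars ± 1 SE from limma), for PNX minus SHAM (dark) and PNX-dnFGFR minus PNX (light), which share the PNX arrays. Every point is open because none passed, and the point farthest from 0 is that of Nr4a1, at 2.17 in dim cells for PNX minus SHAM.

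Mice with the dominant negative receptor were then compared with plain resection and with sham operation. These comparisons share arrays with those above, so their values are given side by side. For PNX-dnFGFR minus PNX, 0 of 10 members passed in bright cells (0.00903% of all genes), in dim cells (0%) or as the mean (0%), with 0, 1 and 1 members at an unadjusted p below 0.05 (12.6%, 7.79% and 12.5% of all genes). The member concerned was Nr4a1. Its dim PNX-dnFGFR arrays, at 7.32 and 6.78, lay between the SHAM and the PNX arrays of that gate. Its difference from PNX was -0.79 ± 0.37 in bright cells (adjusted p = 0.43), -0.88 ± 0.37 in dim cells (0.62) and -0.83 ± 0.26 as the mean (0.26). Its difference from SHAM was -0.35 ± 0.37 in bright and 1.29 ± 0.37 in dim cells (adjusted p = 0.62 and 0.36).

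Against SHAM, 0 of 10 members passed in bright cells, where 5.2% of all genes were called, in dim cells, where 0.0181% were, and as the mean, where 2% were. At an unadjusted p below 0.05 there were 2, 3 and 2 members (22.8%, 9.52% and 21.6% of all genes). Fosl2 came nearest: its PNX-dnFGFR arrays lay above its SHAM arrays in both gates, by 0.62 ± 0.23 in bright and 0.79 ± 0.23 in dim cells, and by 0.70 ± 0.16 as the mean (adjusted p = 0.056). Without either bright PNX array, which do not enter this difference but change the shared estimate of spread, Fosl2 passed at 0.033, still at 0.70. Its second probe set gave smaller differences, of 0.31 in bright and 0.28 in dim cells and 0.29 as the mean (adjusted p = 0.24). Myc in bright cells was at 8.04 and 8.65 against 7.14 and 7.16 (1.19 ± 0.41, adjusted p = 0.12). With values below the filter set to it, that Myc difference passed at an adjusted p of 0.039. Klf4 differed from SHAM by -0.26 in bright and -0.52 in dim cells, and Fosb by -0.12 and 0.50, with an SE of 0.38 for Klf4 and 0.51 for Fosb. The differences of these effects between the gates had 0 members past the threshold by limma, where 0%, 0% and 0.126% of all genes passed for PNX minus SHAM, PNX-dnFGFR minus PNX and PNX-dnFGFR minus SHAM. At an unadjusted p below 0.05 there were 2 members (Egr1 and Nr4a1), 0 and 1 (Nr4a1), against 4.47%, 8.21% and 12.7% of all genes.

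Spread between the 2 arrays of a group was wide for the members in several groups. In bright PNX-dnFGFR all 10 members were higher on replicate 2, by a median of 0.59, where the median size of the gap over all genes was 0.158. The largest gaps there were those of Junb (1.01), Klf4 (0.92), Fosb (0.91) and Nr4a1 (0.89). In bright SHAM 9 of 10 were higher on replicate 2, with a median gap size of 0.19 against 0.177 over all genes. In dim PNX-dnFGFR the largest gap was that of Fosb, at 1.87, and the median gap size was 0.578 for the members against 0.208 for all genes. In dim SHAM it was 0.563 against 0.217, in dim PNX 0.23 against 0.179 and in bright PNX 0.185 against 0.242. Junb was higher on replicate 2 in all 3 bright groups, by 0.89 for SHAM, 1.08 for PNX and 1.01 for PNX-dnFGFR.

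Genes that cells are known to raise during digestion were followed as well, as 11 tested heat shock and metallothionein genes of a list of 16. Their mean log2 signal was 9.11 and 9.04 in bright SHAM, 9.39 and 9.50 in bright PNX, and 9.13 and 9.44 in bright PNX-dnFGFR. In dim cells it was 8.65 and 8.57 for SHAM, 9.12 and 9.55 for PNX and 8.61 and 9.09 for PNX-dnFGFR. The PNX arrays were above the SHAM arrays in both gates. All 11 genes had a positive PNX minus SHAM difference in each gate, with a median of 0.28 in bright and 0.62 in dim cells against 0.02 over all genes. By limma 0 of 11 passed in either gate, and 3 in bright and 5 in dim cells had an unadjusted p below 0.05, against 8.24% and 12.2% of all genes. In dim cells the differences were 0.35 for Hspb1 and 0.21 for Hspa8, the genes of the list with the highest levels. Mt1, a metallothionein named here after its values were seen, had the largest difference of the list in dim cells, at 1.96 (adjusted p = 0.12).

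The dim SHAM arrays, lowest for Nr4a1 and Egr1, also had the lowest mean over the 10 members, at 7.93 and 8.20, against 8.33 to 8.67 on the other dim and 9.19 to 9.80 on the bright arrays. They had the highest mean of 8 macrophage and neutrophil genes, at 7.30 and 7.19, where the other dim arrays had 5.66 to 6.80. Lyz2 of that list was present throughout, at 9.77 to 11.31. The part of digestion and of myeloid cells in the differences from dim SHAM was not tested.

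Between the gates the same 11 genes did not move as 1 block. As the mean over the conditions, 5 were higher in bright cells and 2 lower, with a median of 0.20, where 28.5% of all genes were higher and 19.3% lower. Hspa1b (1.88), Mt1 (1.33) and Hspe1 (0.57) were higher, and Dnajb4 (-0.80) lower. For PNX-dnFGFR minus PNX in dim cells all 11 had a negative difference, with a median of -0.42. Of them 0 passed and 3 had an unadjusted p below 0.05, against 7.79% of all genes. For PNX-dnFGFR minus SHAM in bright cells Hspb1 was higher (1.31, adjusted p = 0.037). It was the 1 of 11 called, where 5.2% of all genes were.

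Among 19 tested other immediate early transcription factors, 7 were higher and 2 lower in bright cells, with a median of 0.23, beside the same 28.5% and 19.3% of all genes. Nfil3, a basic leucine zipper repressor, was higher by 1.67 (adjusted p = 4.6e-06), Egr2, a relative of Egr1, by 1.59, and Klf10, a target of TGF-beta, by 0.92. Atf3, a stress-induced partner of Jun named after its values were seen, was higher by 1.70 ± 0.51 (adjusted p = 0.022). The 2 relatives of Nr4a1, named here after their values were seen, were higher too, Nr4a3 by 0.89 and Nr4a2 by 0.41. Cebpb was lower, at -0.43. For PNX minus SHAM in dim cells 17 of these 19 had a positive difference, with a median of 0.47. None of the 19 passed by limma, and 11 had an unadjusted p below 0.05, against 12.2% of all genes.

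Feedback and effector genes, which limit or carry out the early response, moved in both directions. Of 29 tested, 9 were higher and 11 lower in bright cells, with a median of -0.21, against 28.5% of all genes higher and 19.3% lower. Has2, a hyaluronan synthase, was higher by 1.89, Gadd45g by 1.71 and Zfp36l2, an mRNA decay factor, by 0.58, while Gadd45b was lower, at -1.28. The MAP kinase phosphatases Dusp6 (-1.28), Dusp4 (-0.96) and Dusp1 (-0.60), named after their values were seen, were lower in bright cells. For PNX minus SHAM none of the 29 passed by limma in either gate. An unadjusted p below 0.05 was reached by 5 in bright and 6 in dim cells, against 8.24% and 12.2% of all genes. Errfi1, a feedback inhibitor of the EGF receptor chosen after its values were seen, was nearest, at 2.15 ± 0.32 in dim cells (adjusted p = 0.078). For PNX-dnFGFR minus SHAM in bright cells Ier3 was higher (1.47) and Zfp36l2 lower (-0.55). They were the 2 of 29 called, where 5.2% of all genes were.

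Partners and upstream genes also moved in both directions, to be read against 28.5% of all genes higher and 19.3% lower. Of 16 tested AP-1 partners, 7 were higher and 3 lower in bright cells, led by the CREB relative Creb5 (2.27), Bach1 (1.10) and Jdp2 (0.52), with Atf6, a sensor of endoplasmic reticulum stress, lower (-0.87). Of 15 upstream kinases and serum response factors, 6 were higher and 3 lower. Elk3, a partner of the serum response factor, was higher by 1.27, Nab1, a corepressor of Egr proteins, by 0.81 and Egfr by 0.59, and the stress kinase p38 gene Mapk14 was lower, at -0.84. Of 10 Myc partners and antagonists, 4 were higher and 1 lower, with Mxd3 at 0.65, Mxi1 at 0.51, Mxd4 at 0.31 and Mxd1 at -0.37. Of 7 other Klf and Sp factors, 3 were higher and 3 lower, with Klf12 at 0.68 and Klf15, a glucocorticoid-induced factor, at -1.93. In bright cells Bach1 (1.37), Egfr (0.69) and Nfil3 (1.32) were higher in PNX-dnFGFR than in SHAM. They were the 1 of 16 AP-1 partners, 1 of 15 upstream genes and 1 of 19 other early factors called, where 5.2% of all genes were. These lists' medians lay between -0.35 and 0.25, against 0.85 for the 10 members and 0.05 for all genes. Members and lists were chosen with earlier results of these data known, so this contrast is a description, not a test.

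**Figure D4:**
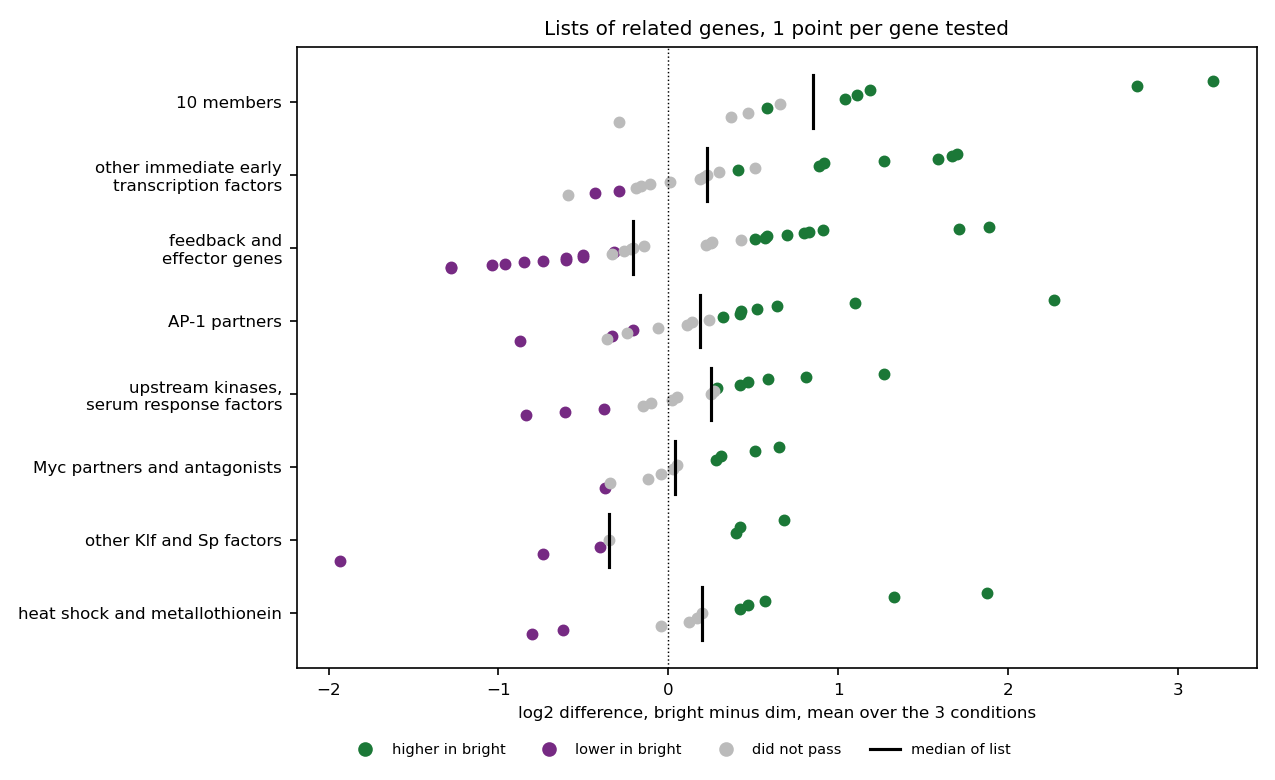
Log2 difference between bright and dim cells, mean over the 3 conditions, for each tested gene (points) of the 10 members and of 7 lists of related genes, with the median of each list as a bar. Green points were higher in bright cells, purple points lower and grey points did not pass. The members' median of 0.85 lies to the right of the other lists' medians, which run from -0.35 to 0.25. Members and lists were chosen with earlier results of these data known.

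The genes most like each member across the 12 arrays were found after each gate's mean was subtracted, so that likeness reflects variation within the gates. These are descriptions over arrays that share their 6 groups. Nr4a1 was most like Sft2d1 (Pearson's r = 0.926), its relative Nr4a3 (0.92) and Stx19 (0.907), and Stx19 was also the gene most like Egr1 (0.924). On dim arrays Nr4a3 was at 5.61 and 6.60 for SHAM, 8.09 and 7.66 for PNX and 7.49 and 7.34 for PNX-dnFGFR, the same order of groups as Nr4a1. Fosb was most like the chaperone gene Hsph1 (0.913), Fos like Phax (0.884) and Socs3, a feedback inhibitor of cytokine signalling (0.874). Fosl2 was most like Tspan6 (0.957), Nlgn2 and Arf4, Klf4 like Prpf19 (0.937), and Myc like Apool (0.897). Jun was most like Xpa (0.887), Junb like Rdh5 (0.86) and Jund like Nlrp5 (0.912).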

How the data were processed

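Per the submitters' processing notes, the deposited values are log2 signals that the authors made with RMA, a method that subtracts background, makes the arrays' distributions alike and summarises the probes of a set. The RMA version is not given in the sources used here. Of 45141 probe sets, 104 were controls, and the array annotation gave 1 gene for 28898, several for 551 and none for 15588. Symbols of 28689 probe sets came from a RefSeq gene table.

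A model with 1 mean per group was fitted over all 11073 genes with limma 3.58.1 in R 4.3.3 (lmFit and eBayes, 6 residual and 3.31 prior degrees of freedom). All p-values are from limma's moderated test. Adjustment followed Benjamini and Hochberg across the 11073 genes of each comparison, with a threshold of 0.05. The script was tested on simulated data. The fit takes bright and dim arrays to be independent.

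The members and the lists of related genes and cell markers were chosen with earlier results of these data known. The text names the 10 members, from each other list up to 4 of the genes past the threshold in a comparison, by lowest adjusted p, and up to 2 with the highest mean level where none passes, and the 3 genes most like each member. A gene named outside this rule is marked as such. Alternatives were no filter, a stricter filter, another quantile normalization, probe sets averaged per gene, a variance trend, a fit on only the groups compared, replicate blocks, values below the filter set to it, and each array left out. The second probe set, and leaving out both dim SHAM arrays, were added after the data were seen. Genes of the lists without a named probe set were not analysed here. Motifs were searched on both strands.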

Additional observations from a re-analysis of the deposited data

How the results depend on the processing

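For bright minus dim as the mean over the conditions, the 6 members called became 10 with the replicate number as a block, a fixed term (Fos, Jun and Junb higher and Jund lower beside the 6), and 3 (Fosl2, Klf4 and Myc) without both dim SHAM arrays, since the difference then rests on PNX and PNX-dnFGFR alone. No label says what a number marks. Across all genes, the deviations of same-numbered bright and dim arrays correlated at 0.00546 for SHAM, 0.00342 for PNX and 0.128 for PNX-dnFGFR, so the block was kept as an alternative. Among the bright groups they correlated at 0.0648 to 0.347 across all genes, and at 0.653 to 0.841 across the 10 members. With condition and number as a random block the count was 6. Leaving out each array gave 5 to 7. Counts of 0 became 1 for PNX minus SHAM as the mean with the mean of probe sets (Fosl2, adjusted p = 0.039), for PNX-dnFGFR minus SHAM in bright cells with values below the filter set to it (Myc), and for PNX-dnFGFR minus SHAM as the mean with a stricter filter, the mean of probe sets, a variance trend or values set to the filter (Fosl2). Leaving out each array gave 0 to 1 there. The cause was not tested.

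With the second probe set, Jund turned to 0.17 for bright minus dim in SHAM, 0.31 for PNX minus SHAM and 0.20 for PNX-dnFGFR minus SHAM in dim cells, and Fosl2 to -0.21 in bright cells and -0.34 as the mean for PNX-dnFGFR minus PNX. With the mean of probe sets the latter was -0.17. Leaving out 1 array turned other values that had not passed. For bright minus dim in PNX-dnFGFR, Jun ranged from -0.46 to 0.50. For PNX minus SHAM in dim cells, Myc ranged from -0.69 to 0.45. For PNX-dnFGFR minus PNX in dim cells, Fosb ranged from -1.56 to 0.31, Klf4 from -0.93 to 0.33 and Jun from -0.04 to 0.93. For PNX-dnFGFR minus SHAM in dim cells, Jund ranged from -0.43 to 0.01, Klf4 from -1.15 to 0.11 and Fosb from -0.44 to 1.43. As means over the gates, Fosb ranged from -0.85 to 0.09 for PNX-dnFGFR minus PNX and from -0.28 to 0.66 for PNX-dnFGFR minus SHAM, where Jun ranged from -0.27 to 0.21. The difference of PNX-dnFGFR minus PNX between the gates ranged for Klf4 from -0.45 to 0.80. Sign changes of values within 1 SE of 0 on both sides were not counted. No value that passed the threshold changed sign under any alternative that was run.

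Counts over all genes moved more. With 1 array left out, bright minus dim called as few as 1229 genes for SHAM (against 2107), 1110 for PNX (2042) and 2429 for PNX-dnFGFR (3812). PNX minus SHAM called 0 to 14 in bright cells (1), 1 to 13 in dim cells (5) and 1 to 27 as the mean (16), and 48 as the mean with the mean of probe sets. PNX-dnFGFR minus PNX called 0 to 429 in bright cells (1), 0 to 1 in dim cells (0) and 0 to 129 as the mean (0). PNX-dnFGFR minus SHAM called 5 to 910 in bright cells (576), 2 to 8 in dim cells (2) and 7 to 495 as the mean (221). The differences between the gates called 0 to 1, 0 to 50 and 0 to 95 genes (0, 0 and 14).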
